A study of Mus musculus with 6 samples.

Results

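This account covers 38 genes of DNA replication and S phase, taken by symbol from the 37060 genes of RNA-sequencing data on the mouse uterus. The tissue was taken on gestation day 5, when the embryo attaches and implants. The genes were picked by name for their known roles in origin licensing, the replicative helicase, the polymerases and their accessory factors, nucleotide synthesis, the E2F and cyclin E control of S phase, and the copying of chromatin. They were chosen with earlier results of these data known. Shares of all genes tested are therefore set beside them only as a description. Whole uteri of 3 SRC-2d/d mutant mice and 3 SRC-2f/f control mice were profiled by stranded mRNA sequencing, each library from a different mouse per the study's design text. The comparison asks which genes depend on SRC-2, a coactivator of steroid receptors encoded by Ncoa2, when the embryo implants. The labels give SRC-2f/f as the control and SRC-2d/d as the mutant genotype and name no Cre driver, no age and no treatment. As background, mice of these names are known as floxed SRC-2 mice, and as floxed mice that also express Cre from the progesterone receptor locus, in which cells without that receptor would keep the gene.

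Eukaryotic DNA replication starts when the origin recognition complex, Cdc6 and Cdt1 load the Mcm2 to Mcm7 helicase onto DNA in G1. Cdc45, the GINS complex and Mcm10 then turn it into an active helicase, behind which the polymerases, the Pcna clamp and the ligase copy each strand. E2F factors switch on most of these genes at the entry into S phase, and cyclin E with its kinase drives that entry. In the mouse uterus around implantation, stromal cells under the attached embryo proliferate and then turn into decidual cells, many of which go on to copy their DNA without dividing.

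All 38 genes had lower mean levels in SRC-2d/d than in SRC-2f/f uteri, and 16 of them, or 42.1%, fell by the test. The test was limma on log2(normalized count + 1), where a normalized count is the deposited value, the reads of a gene over the size factor of its library, and a gene was called where the adjusted p over all 36154 genes tested was under 0.05. Of all genes tested, 4.08% were called lower and 5.34% higher, and 0 of the 38 were called higher, with 0 at an unadjusted p under 0.05 in that direction and 0 higher by edgeR. The median log2 difference of the 38, SRC-2d/d minus SRC-2f/f, was -1.28 (range -2.48 to -0.28), against -0.01 over all genes tested. The genes called were Mcm5, Mcm7, Cdc6, Cdt1, Mcm10, Cdc45, Gins1, Gins2, Rpa2, Rrm2, Tyms, Tk1, E2f1, E2f8, Ccne1 and Ccne2. All 38 genes passed the filter on low values, and the lowest count of any of them in a library was 201 reads. In bulk tissue, fewer cells of a type and less RNA per cell cannot be told apart.

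The 3 SRC-2d/d uteri differed widely among themselves. Those of mice 1 and 3 lay below all 3 SRC-2f/f uteri for 38 of 38 genes, which was so for 19.7% of all genes tested. The uterus of SRC-2d/d mouse 2 lay within the SRC-2f/f range for 31 of the genes, above it for 1 (E2f2) and below it for 6 (Cdc6, Rrm2, E2f1, E2f8, Ccne1 and Ccne2). As shares of the 38 these were 81.6%, 2.63% and 15.8%, against 51.8%, 25.7% and 22.5% of all genes tested. Those 6 were thus the genes whose groups did not overlap, against 12.1% of all genes with all 3 SRC-2d/d below all 3 SRC-2f/f libraries. As a mean over the 38 genes, SRC-2d/d mice 1 to 3 stood at -2.02, -0.25 and -1.44 on the log2 scale relative to the SRC-2f/f mean, and SRC-2f/f mice 1 to 3 stood at -0.44, 0.06 and 0.38. SRC-2f/f mouse 1 was the lowest of its group for 38 of the 38 genes, against 39.6% of all genes tested, and SRC-2f/f mouse 3 the highest for 32, or 84.2%, against 36.6% of all genes tested.

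**Figure D1:**
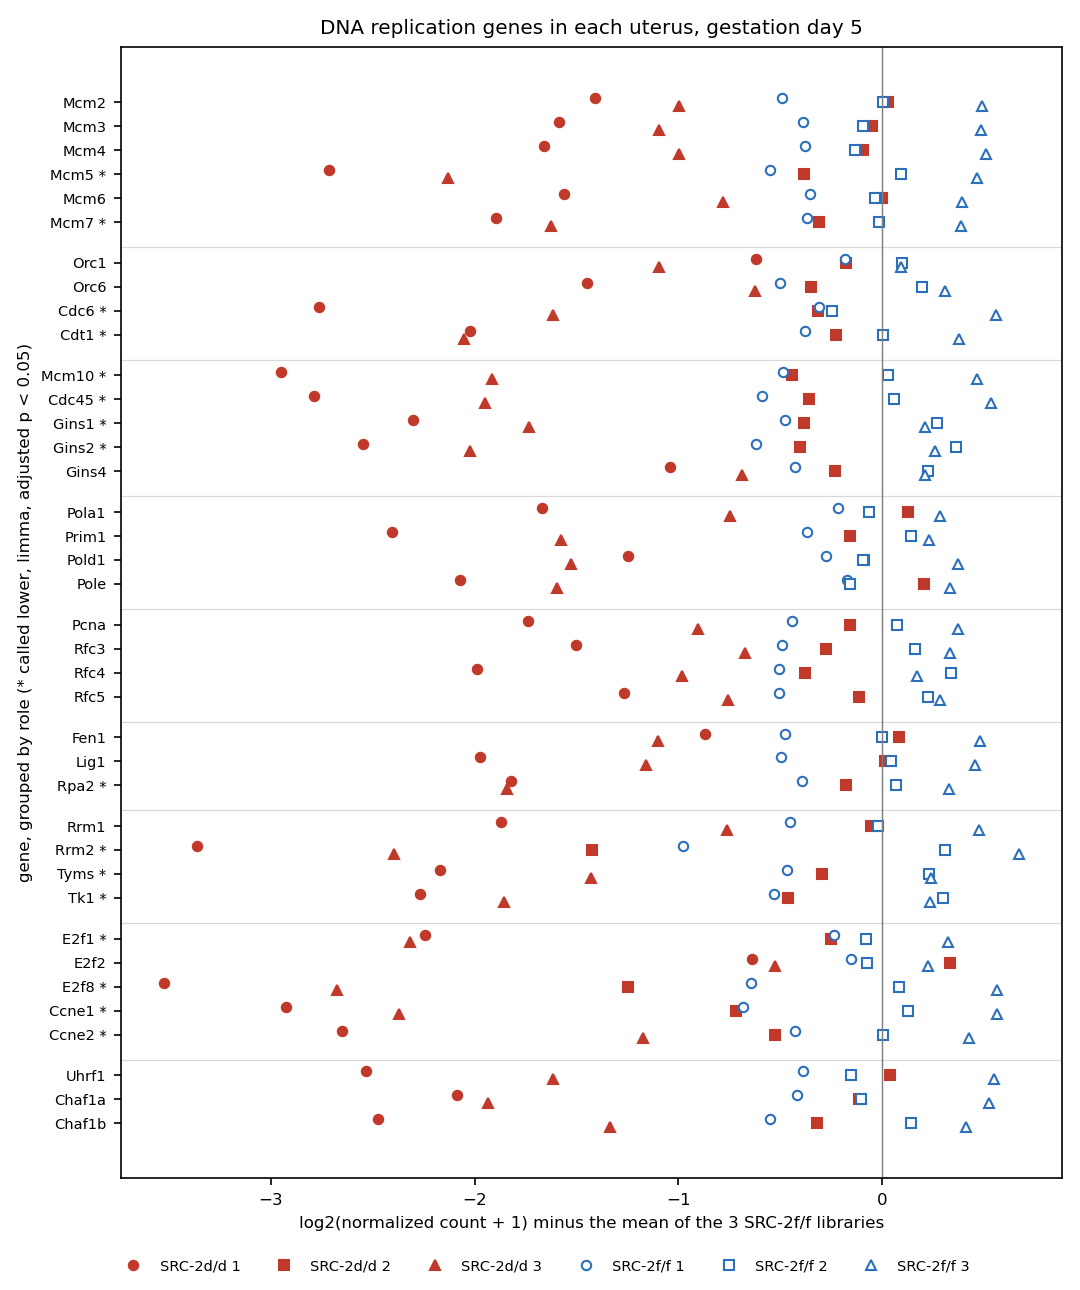
Level of each of the 38 genes in each uterus, as log2(normalized count + 1) minus the mean of the 3 SRC-2f/f libraries. Filled red symbols are SRC-2d/d and open blue symbols SRC-2f/f mice, with circles, squares and triangles for mice 1, 2 and 3, drawn slightly apart in each row, and an asterisk marks the 16 genes called lower. SRC-2d/d mice 1 and 3 lie to the left of all SRC-2f/f mice in every row, while SRC-2d/d mouse 2 lies among them in 31 rows.

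The number of calls moved with single libraries and with the tool. Without SRC-2d/d mouse 2, 35 of the 38 genes were called lower, all but Orc1, Fen1 and E2f2, against 7.84% of all genes, and the median log2 difference was -1.82. Without SRC-2d/d mouse 1 the calls were 2 (2.29% of all genes) and without SRC-2d/d mouse 3 they were 2 (2.13%). They were 4 without SRC-2f/f mouse 1 (2.55%), 2 without SRC-2f/f mouse 2 (1.26%) and 0 without SRC-2f/f mouse 3 (0.879%), with 0 of the 38 higher in each. With limma's eBayes robust or without trend, 0 of the 38 were called in either direction. Of all 36154 genes tested, 1499 were called lower with eBayes robust and 315 without trend, against 1476 by the test above. On the whole reads recovered from the deposited values, edgeR called 4 genes lower (Rrm2, Tk1, E2f8 and Ccne1; 3.58% of all genes) and DESeq2 16 (5.87%). Rrm2 and E2f8 kept their limma call on the removal of any library other than SRC-2f/f mouse 3. Tk1 and Ccne1 lost it without SRC-2d/d mouse 1 or 3 and without SRC-2f/f mouse 2 or 3. The other 12 lost it on the removal of any library other than SRC-2d/d mouse 2. In those other removals, all genes called belonged to nucleotide synthesis or to the E2F factors and E cyclins.

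**Figure D2:**
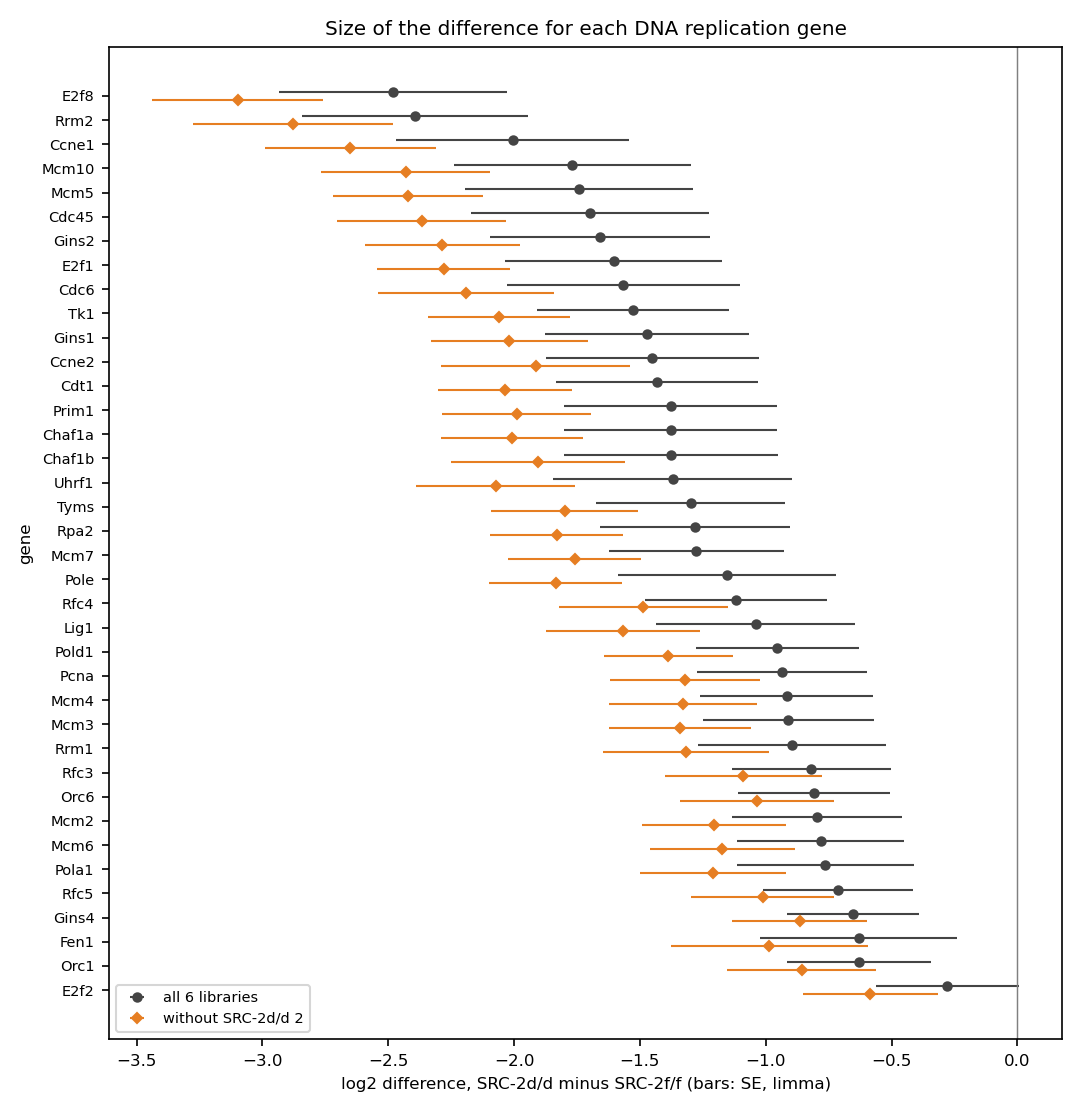
Log2 difference of each of the 38 genes, SRC-2d/d minus SRC-2f/f, on the log2(normalized count + 1) scale, from the fit to all 6 libraries and from the fit without SRC-2d/d mouse 2. Dark circles are the fit to all libraries, orange diamonds the fit without that mouse, bars the standard error and the vertical line 0. All differences lie below 0, from -2.48 for E2f8 to -0.28 for E2f2, and all lie further from 0 without SRC-2d/d mouse 2.

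Ncoa2, the deleted gene, had 7620, 6667 and 7409 normalized counts in SRC-2d/d mice 1 to 3, against 13208, 13090 and 14495 in SRC-2f/f mice 1 to 3 (log2 difference -0.91, SE 0.20, adjusted p = 0.00953). The groups did not overlap, and SRC-2d/d mouse 2 had the lowest level of all 6. The call was lost without SRC-2f/f mouse 2 or 3 and with eBayes without trend, at adjusted p-values of 0.00249 to 0.119 over all settings, and an exact two-sided permutation test reached p = 0.1, its lower limit for 3 against 3 mice. Between 129905950 and 195782326 reads per library fell in genes, and 3 reads corresponded to 2.48 to 3.41 normalized counts.

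The E2F factors and E cyclins, which set the entry into S phase, held the gene with the largest difference of the 38. In this group 4 of 5 fell, with a median log2 difference of -1.60. E2f8 encodes an atypical E2F that represses E2F targets and is known in mouse liver and trophoblast for its part in polyploidy. It had 744, 3607 and 1344 normalized counts in SRC-2d/d mice 1 to 3, against 5477, 9081 and 12664 in SRC-2f/f mice 1 to 3. All SRC-2d/d uteri lay below all SRC-2f/f uteri, that of SRC-2d/d mouse 2 included. The means were 1898 ± 1510 in SRC-2d/d and 9074 ± 3593 in SRC-2f/f (SD, n = 3 each), so that 20.9% of the SRC-2f/f level was found, or 11.5% without SRC-2d/d mouse 2 (log2 difference -2.48, SE 0.45, adjusted p = 0.00318; edgeR adjusted p = 0.00523). Ccne1, which encodes cyclin E1, had 506, 2344 and 743 normalized counts in SRC-2d/d and 2394, 4196 and 5685 in SRC-2f/f mice 1 to 3 (-2.01, SE 0.46, adjusted p = 0.0139; edgeR adjusted p = 0.0269). The groups did not overlap, but SRC-2d/d mouse 2 stood just below SRC-2f/f mouse 1.

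Ccne2, for cyclin E2, had 488, 2138 and 1361 normalized counts in SRC-2d/d mice, against 2288, 3083 and 4122 in SRC-2f/f mice (-1.45, SE 0.42, adjusted p = 0.0469). E2f1, an activating E2F, had 880, 3500 and 835 in SRC-2d/d mice, against 3531, 3938 and 5208 in SRC-2f/f mice (-1.60, SE 0.43, adjusted p = 0.0313). Both genes were separated between the groups, again with SRC-2d/d mouse 2 close under the lowest SRC-2f/f mouse. E2f2, another activating E2F, had 1108, 2173 and 1198 in SRC-2d/d and 1555, 1642 and 2020 in SRC-2f/f mice (-0.28, SE 0.28, adjusted p = 0.629), and it was the gene of the 38 with the smallest difference. Here SRC-2d/d mouse 2 had the highest level of the 6 uteri.

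The promoters of 6 of these genes are shown for their matches to the core of the E2F binding motif, because E2F factors are known regulators of the group. They are E2f8, Ccne1, Rrm2 and Mcm5, which had the largest falls or the largest shift within their enzyme, and Rrm1 and Mcm6. Rrm1 is the partner subunit of Rrm2 and was not called. Mcm6 is 1 of 4 partners of Mcm5 that were not called, beside Mcm2, Mcm3 and Mcm4. Each window runs from 250 bases before to 50 bases after the start of the gene in RefSeq (GRCm38.p6), read on the strand of the gene, and capitals mark the match. The letters searched on both strands were TTCCCGC or TTCGCGC or TTGCCGC or TTGGCGC, and matches on opposite strands can overlap.
E2f8, chr7:48881547-48881846, minus strand: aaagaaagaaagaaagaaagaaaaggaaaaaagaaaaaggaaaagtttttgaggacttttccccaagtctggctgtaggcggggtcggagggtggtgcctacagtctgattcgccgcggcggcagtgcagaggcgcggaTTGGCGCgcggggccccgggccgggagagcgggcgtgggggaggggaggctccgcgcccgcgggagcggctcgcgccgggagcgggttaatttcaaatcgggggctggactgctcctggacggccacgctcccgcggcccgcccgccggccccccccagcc
Ccne1, chr7:38107441-38107740, minus strand: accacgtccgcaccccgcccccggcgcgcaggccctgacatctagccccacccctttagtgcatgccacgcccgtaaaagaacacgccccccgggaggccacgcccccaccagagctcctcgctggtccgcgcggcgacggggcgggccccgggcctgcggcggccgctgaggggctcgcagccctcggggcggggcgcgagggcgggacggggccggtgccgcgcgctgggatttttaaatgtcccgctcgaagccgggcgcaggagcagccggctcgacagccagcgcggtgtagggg
Rrm2, chr12:24708004-24708303, plus strand: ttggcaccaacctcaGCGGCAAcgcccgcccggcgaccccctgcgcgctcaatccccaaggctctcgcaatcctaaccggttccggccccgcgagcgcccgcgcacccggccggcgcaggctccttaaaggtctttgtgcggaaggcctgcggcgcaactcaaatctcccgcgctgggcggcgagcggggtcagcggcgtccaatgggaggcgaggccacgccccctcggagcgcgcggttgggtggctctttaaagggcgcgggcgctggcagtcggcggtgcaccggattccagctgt
Rrm1, chr7:102441445-102441744, plus strand: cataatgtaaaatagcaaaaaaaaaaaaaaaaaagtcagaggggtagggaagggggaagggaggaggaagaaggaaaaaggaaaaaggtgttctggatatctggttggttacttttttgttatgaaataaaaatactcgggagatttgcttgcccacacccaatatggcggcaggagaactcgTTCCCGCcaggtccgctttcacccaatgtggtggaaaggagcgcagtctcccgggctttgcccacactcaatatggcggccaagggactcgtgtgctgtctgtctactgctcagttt
Mcm5, chr8:75109259-75109558, plus strand: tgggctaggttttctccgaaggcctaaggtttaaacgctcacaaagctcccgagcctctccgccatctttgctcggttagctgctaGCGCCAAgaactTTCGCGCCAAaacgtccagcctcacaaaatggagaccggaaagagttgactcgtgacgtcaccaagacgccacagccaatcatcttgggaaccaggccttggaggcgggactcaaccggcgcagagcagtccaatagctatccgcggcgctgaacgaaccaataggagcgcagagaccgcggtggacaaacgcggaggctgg
Mcm6, chr1:128359656-128359955, minus strand: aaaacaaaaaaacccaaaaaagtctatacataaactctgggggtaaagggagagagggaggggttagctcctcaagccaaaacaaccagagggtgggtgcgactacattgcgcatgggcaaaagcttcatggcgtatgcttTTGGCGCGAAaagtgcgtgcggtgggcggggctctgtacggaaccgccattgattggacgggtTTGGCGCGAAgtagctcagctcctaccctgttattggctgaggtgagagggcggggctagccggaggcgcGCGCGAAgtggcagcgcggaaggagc

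The windows held 5 matches in Mcm6, 3 in Mcm5, 1 each in E2f8, Rrm2 and Rrm1, and 0 in Ccne1. Those of Mcm2 and Mcm3, not shown, held 0 and 3. The match in E2f8 began 111 bases before the start, that in Rrm1 67 bases and that in Rrm2 235 bases before it. RefSeq windows were found for 32 of the 38 genes, and 22 of the 32, or 68.8%, held at least 1 match, against 13.7% of 17492 protein-coding genes. By window the share was 65.8% of 38 windows, against 9.57% of the 32851 windows in the table. For the CCAAT box, searched as CCAAT on both strands, which overlaps an E2F match where GCGCCAA is followed by a T, 20 of the 32 genes or 62.5% had a match, against 42.3% of protein-coding genes, and 60.5% of their windows, against 37.4% of all windows. The median log2 difference was -1.20 (range -2.48 to -0.28) in the 22 genes with an E2F match. In the 10 without it was -1.41 (range -2.01 to -0.71). A link of the match to the size of the difference was not tested. These are matches of letters, given as a description and not as binding sites. The 38 genes were picked from a group that E2F factors are known to switch on. Their share of matches therefore cannot be read apart from that choice.

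Origin licensing factors fell in 2 of 4 cases, with a median log2 difference of -1.12. Cdc6, an ATPase that helps to load the helicase, had 512, 2802 and 1138 normalized counts in SRC-2d/d mice 1 to 3, against 2816, 2941 and 5129 in SRC-2f/f mice (-1.57, SE 0.46, adjusted p = 0.0494). The groups were separated only by the small gap between SRC-2d/d mouse 2 and SRC-2f/f mouse 1. Cdt1, its partner in loading, had 1604, 5562 and 1570 in SRC-2d/d mice, against 5009, 6527 and 8435 in SRC-2f/f mice (-1.43, SE 0.40, adjusted p = 0.0379), and SRC-2d/d mouse 2 lay inside the SRC-2f/f range. The origin recognition subunit genes Orc1 and Orc6 had smaller differences, of -0.63 and -0.81 (adjusted p = 0.207 and 0.119). Without SRC-2d/d mouse 2, Orc6 was called (-1.03, adjusted p = 0.0312) and Orc1 was not (-0.86, adjusted p = 0.0645).

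The 6 genes of the replicative helicase did not move by equal amounts. Mcm5 and Mcm7 fell, and the median of the 6 was -0.91. Mcm5 had 3986, 20032 and 5967 normalized counts in SRC-2d/d mice 1 to 3, against 17800.4, 27808 and 35990.5 in SRC-2f/f mice (-1.74, SE 0.45, adjusted p = 0.0267). SRC-2d/d mice 1 and 3 stood far below every SRC-2f/f mouse, and SRC-2d/d mouse 2 above SRC-2f/f mouse 1. For Mcm7 the counts were 5699, 17112 and 6877 in SRC-2d/d mice, against 16379, 20971 and 27706 in SRC-2f/f mice (-1.28, SE 0.35, adjusted p = 0.0336), with the same overlap. Mcm2, Mcm3, Mcm4 and Mcm6 had differences of -0.92 to -0.78 (adjusted p of 0.118 to 0.174). Without SRC-2d/d mouse 2 all 6 were called, at a median of -1.33, and on the removal of any other library 0 were.

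The hexamer holds each of the 6 subunits once, and the share of each gene in their summed normalized count was also compared, a choice made after the values were seen. These shares are not corrected for gene length. Mcm5 made up 11.6%, 18.5% and 11.9% in SRC-2d/d mice 1 to 3, against 20.1%, 23.6% and 22.1% in SRC-2f/f mice. The means were 14.0% ± 3.92 in SRC-2d/d and 21.9% ± 1.76 in SRC-2f/f (SD, n = 3 each; exact two-sided permutation test, p = 0.1, the smallest possible). The groups did not overlap for Mcm5, and SRC-2d/d mouse 2 lay between the other two SRC-2d/d mice and the SRC-2f/f mice. The Mcm7 share also lay lower in all SRC-2d/d mice (15.4% ± 1.49, against 17.7% ± 0.726 in SRC-2f/f). Those of Mcm2, Mcm3 and Mcm6 lay higher in all of them, and that of Mcm4 overlapped (exact p = 0.3). The 6 shares are parts of a whole, so lower shares of Mcm5 and Mcm7 leave a higher share for the rest. The counts of the rest also had lower means in SRC-2d/d.

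The group with the largest median difference was origin firing, at -1.66, where 4 of 5 genes fell. Mcm10, which binds the helicase as it is activated, had 581, 3298 and 1192 normalized counts in SRC-2d/d mice 1 to 3, against 3198, 4570.2 and 6185 in SRC-2f/f mice (-1.77, SE 0.47, adjusted p = 0.0295). Cdc45, the helicase cofactor, had 595, 3209 and 1066 in SRC-2d/d mice, against 2734, 4280 and 5956 in SRC-2f/f mice (-1.70, SE 0.47, adjusted p = 0.0373). In both genes SRC-2d/d mice 1 and 3 were low and SRC-2d/d mouse 2 exceeded the lowest SRC-2f/f mouse. Gins1 and Gins2 encode subunits of the GINS complex. Gins1 had 432, 1637 and 641 in SRC-2d/d mice, against 1534, 2572 and 2464 in SRC-2f/f mice (-1.47, SE 0.40, adjusted p = 0.0350). Gins2 had 1022, 4520 and 1473 in SRC-2d/d mice, against 3894, 7696 and 7159 in SRC-2f/f mice (-1.66, SE 0.44, adjusted p = 0.0285), with the same pattern of overlap. In GENCODE M21, 67.3% of the exon length of Gins2 overlaps Gse1 on the other strand, and the sources used here do not give the strand setting of the counting. Gins4, the remaining GINS gene of the 38, had a difference of -0.65 (adjusted p = 0.147), and -0.86 without SRC-2d/d mouse 2 (adjusted p = 0.0390).

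None of the 4 polymerase and primase genes was called by limma, with 0 lower by edgeR and DESeq2 too, at a median of -1.05, and 4 of 4 were called lower without SRC-2d/d mouse 2 (median -1.61). On the removal of any other library 0 were called lower. Prim1, the catalytic subunit of primase, had 904, 4296 and 1608 normalized counts in SRC-2d/d mice 1 to 3, against 3702, 5286 and 5616 in SRC-2f/f mice (-1.38, SE 0.42, adjusted p = 0.0568). Pold1, the catalytic subunit of polymerase delta, had 4359, 9703 and 3586 in SRC-2d/d mice, against 8541, 9695 and 13348 in SRC-2f/f mice (-0.96, SE 0.32, adjusted p = 0.0841). Both genes overlapped between the groups through SRC-2d/d mouse 2. Pole, the catalytic subunit of polymerase epsilon, and Pola1, that of polymerase alpha, had differences of -1.15 and -0.76 (adjusted p = 0.120 and 0.216).

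The sliding clamp Pcna and the clamp loader genes Rfc3, Rfc4 and Rfc5 were likewise not called with all libraries, at a median of -0.88, and 4 of 4 were called lower without SRC-2d/d mouse 2 (median -1.21). No other removal of a library gave a call in this group. Rfc4 had 711, 2175 and 1431 normalized counts in SRC-2d/d mice 1 to 3, against 1986, 3576 and 3180 in SRC-2f/f mice (-1.12, SE 0.36, adjusted p = 0.0713). Pcna had 4703, 14061 and 8386 in SRC-2d/d mice, against 11557, 16515 and 20281 in SRC-2f/f mice (-0.93, SE 0.34, adjusted p = 0.106). For each of them SRC-2d/d mice 1 and 3 were the lowest of the 6 uteri, and SRC-2d/d mouse 2 stood between SRC-2f/f mice 1 and 2. Rfc3 and Rfc5 had differences of -0.82 and -0.71.

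Of the lagging-strand and single-strand binding genes, Rpa2 fell and Fen1 and Lig1 were not called. Rpa2, a subunit of the complex that coats single-stranded DNA, had 1729, 5402 and 1706 normalized counts in SRC-2d/d mice 1 to 3, against 4648, 6405 and 7679 in SRC-2f/f mice (-1.28, SE 0.38, adjusted p = 0.0482; DESeq2 adjusted p = 0.0579). The level of SRC-2d/d mouse 2 was between those of SRC-2f/f mice 1 and 2. Lig1, the ligase that joins Okazaki fragments, had a difference of -1.04 (adjusted p = 0.125), and -1.57 without SRC-2d/d mouse 2 (adjusted p = 0.00204). Fen1, the flap endonuclease, had 194 to 442 normalized counts in SRC-2d/d and 300 to 584 in SRC-2f/f mice (-0.63, adjusted p = 0.383). Per kilobase of exon it had the lowest mean level of the 38, at 119 normalized counts in SRC-2d/d and 179 in SRC-2f/f, and 84.2% of its exon length overlaps genes on the other strand.

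Nucleotide synthesis genes fell in 3 of 4 cases, with a median of -1.41. Rrm2 encodes the small subunit of ribonucleotide reductase, which carries the radical of the enzyme and limits its activity outside S phase. It had 3060.4, 11731 and 5970 normalized counts in SRC-2d/d mice 1 to 3, against 15946, 38925 and 50063 in SRC-2f/f mice. All SRC-2d/d uteri lay below all SRC-2f/f uteri, and SRC-2d/d mouse 2 was the highest of its group. The means were 6920.5 ± 4413 in SRC-2d/d and 34978 ± 17398 in SRC-2f/f (SD, n = 3 each), so that 19.8% of the SRC-2f/f level was found, or 12.9% without SRC-2d/d mouse 2 (log2 difference -2.39, SE 0.45, adjusted p = 0.00379; edgeR adjusted p = 0.00314). Per kilobase of exon Rrm2 had the highest mean of the 38 in SRC-2f/f uteri, at 12623 normalized counts, but it averaged 2497 in SRC-2d/d uteri, where Pcna was highest at 3771. Rrm1, the large subunit, had 5841, 20544 and 12580.4 normalized counts in SRC-2d/d mice, against 15603, 21050.3 and 29635 in SRC-2f/f mice (-0.90, SE 0.37, adjusted p = 0.165), and the level of SRC-2d/d mouse 2 was close to that of SRC-2f/f mouse 2.

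The balance of the 2 subunits separated the genotypes in every mouse. Rrm2 made up 34.4%, 36.3% and 32.2% of the summed normalized counts of Rrm1 and Rrm2 in SRC-2d/d mice 1 to 3, against 50.5%, 64.9% and 62.8% in SRC-2f/f mice. These shares are not corrected for gene length either. Per kilobase of exon, Rrm2 had the higher mean in both groups, at 2497 against 1179 for Rrm1 in SRC-2d/d and 12623 against 2007 in SRC-2f/f. SRC-2d/d mouse 2, which resembled the SRC-2f/f mice in the level of most of the 38 genes, had the highest share of its group and still lay below all SRC-2f/f mice. The means were 34.3% ± 2.08 in SRC-2d/d and 59.4% ± 7.76 in SRC-2f/f (SD, n = 3 each; exact two-sided permutation test, p = 0.1, the smallest possible), and the share was chosen after the values were seen. By contrast, Ccne1 as a share of both E cyclins (46.2% ± 9.43 in SRC-2d/d, 55.6% ± 3.86 in SRC-2f/f; exact permutation p = 0.2) and Chaf1a as a share of both chromatin assembly subunits (64.8% ± 8.44 in SRC-2d/d, 65.1% ± 3.42 in SRC-2f/f; exact permutation p = 1) overlapped between the groups.

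**Figure D3:**
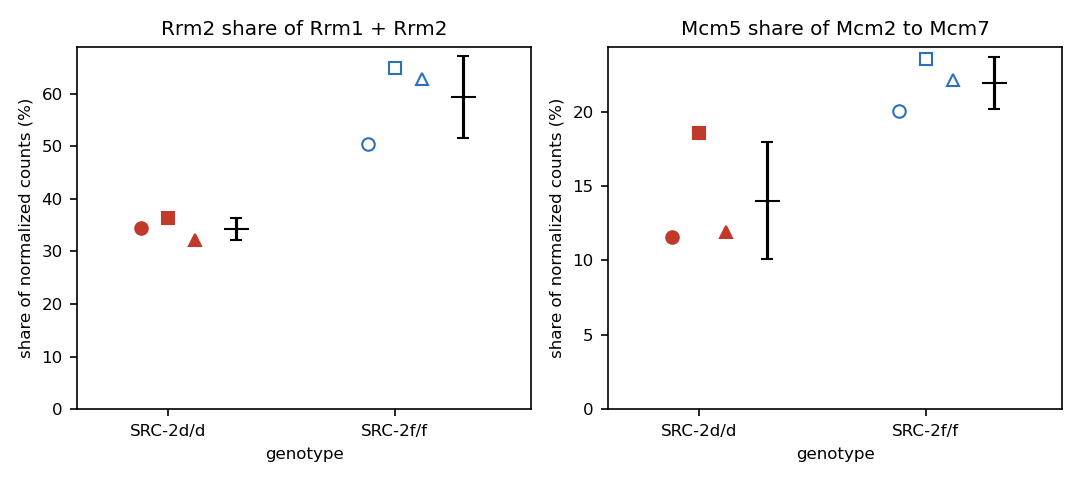
Share of Rrm2 in the summed normalized counts of Rrm1 and Rrm2, and of Mcm5 in those of Mcm2 to Mcm7, in percent, for each mouse. Circles, squares and triangles are mice 1, 2 and 3, filled red for SRC-2d/d and open blue for SRC-2f/f, and black bars are the mean ± SD of 3 mice. The groups do not overlap for Rrm2 (mean 34.3% in SRC-2d/d, 59.4% in SRC-2f/f) or for Mcm5 (mean 14.0% in SRC-2d/d, 21.9% in SRC-2f/f). Shares are not corrected for gene length.

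Tk1 and Tyms, which supply thymidine nucleotides by salvage and by new synthesis, were the other nucleotide genes that fell. Tk1, thymidine kinase, had 3180, 11112 and 4229 normalized counts in SRC-2d/d mice 1 to 3, against 10595, 18777 and 18008 in SRC-2f/f mice (-1.53, SE 0.38, adjusted p = 0.0211; edgeR adjusted p = 0.0365). Tyms, thymidylate synthase, had 2312, 8464 and 3864 in SRC-2d/d mice, against 7532, 12193 and 12262 in SRC-2f/f mice (-1.30, SE 0.37, adjusted p = 0.0439). For both, SRC-2d/d mouse 2 stood above SRC-2f/f mouse 1 and below the other SRC-2f/f mice.

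The genes that copy chromatin behind the fork, Chaf1a and Chaf1b of the histone chaperone CAF-1 and Uhrf1, which guides maintenance methylation, were not called with all libraries (median -1.38), and 3 of 3 were called lower without SRC-2d/d mouse 2 (median -2.01). With any other library removed, 0 of the 3 were called lower. Chaf1a had 1922, 7535 and 2136 normalized counts in SRC-2d/d mice 1 to 3, against 6101, 7587 and 11746 in SRC-2f/f mice (-1.38, SE 0.42, adjusted p = 0.0570). Chaf1b had 785, 3497 and 1732 in SRC-2d/d mice, against 2980, 4818 and 5794 in SRC-2f/f mice (-1.38, SE 0.42, adjusted p = 0.0585; DESeq2 adjusted p = 0.0477). In each of them SRC-2d/d mouse 2 lay inside the SRC-2f/f range. Uhrf1 reached 19750 normalized counts in SRC-2d/d mouse 2, above SRC-2f/f mice 1 and 2, but 3323 and 6272 in SRC-2d/d mice 1 and 3 (-1.37, SE 0.47, adjusted p = 0.0915). Of Chaf1a, 52.5% of the exon length overlaps Ubxn6 on the other strand.

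A further 96 genes of the pathway were read from 5 lists, and the difference between them and the 38 genes was not tested. Of the 96, 9 fell and 0 were called higher (0 at an unadjusted p under 0.05 and 0 by edgeR), with a median log2 difference of -0.74, and 8 were called lower by edgeR and 54 without SRC-2d/d mouse 2. Among 34 other genes of the replication machinery 4 fell (median -0.84). These were Pola2, the second subunit of polymerase alpha (-1.33, adjusted p = 0.0184), Cdc7, the kinase that activates the helicase (-1.16, adjusted p = 0.0325), Mcm8, a helicase of replication-linked repair (-1.49, adjusted p = 0.0423), and Rnaseh2a, the catalytic subunit of ribonuclease H2 (-0.89, adjusted p = 0.0437). Of 10 other genes of deoxynucleotide supply, Dut, the dUTPase, fell (-1.34, adjusted p = 0.0369; median of the list -0.67). Among 26 regulators of the G1 to S transition 2 fell (median -0.50).

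Skp2, the ubiquitin ligase subunit that marks the kinase inhibitor p27 for degradation, had 1194, 2928 and 1330 normalized counts in SRC-2d/d mice 1 to 3, against 3798, 5774 and 7178 in SRC-2f/f mice (-1.69, SE 0.33, adjusted p = 0.00541). Its groups did not overlap. Cdkn1c, which encodes the kinase inhibitor p57, also fell (-1.21, adjusted p = 0.0153). The list of 10 genes of chromatin and histone supply had 0 called in either direction by limma and edgeR, and 6 called lower without SRC-2d/d mouse 2; its smallest p belonged to the histone chaperone Asf1b (-1.42, adjusted p = 0.0748). In the list of 16 repair and checkpoint genes 2 fell, among them Wee1, the kinase that restrains mitotic entry (-1.38, adjusted p = 0.0245). Of these 9 calls that of Skp2 was lost without SRC-2f/f mouse 3, that of Cdkn1c without SRC-2d/d mouse 1 or SRC-2f/f mouse 2 or 3, and each of the other 7 on the removal of SRC-2d/d mouse 1 or 3 or of SRC-2f/f mouse 2 or 3, and 4 of the 7, Cdc7, Mcm8 and Wee1 among them, also without SRC-2f/f mouse 1.

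Genes of mitosis and the spindle, 30 in all, had a median of -1.37, with 6 lower and 0 higher by limma, 0 called by edgeR, and 29 lower without SRC-2d/d mouse 2. Cenpa, a histone H3 variant of centromeres (-1.34, adjusted p = 0.0305), Aurka and Cdk1, kinases of mitosis (-1.62 and -1.65), Birc5, a subunit of the chromosomal passenger complex (-1.48), Nuf2, of the kinetochore, and Cdc20, an activator of the anaphase-promoting complex, were the members that fell. Each of these calls was lost on the removal of any library other than SRC-2d/d mouse 2, and the difference between their list and the 38 genes was not tested.

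**Figure D4:**
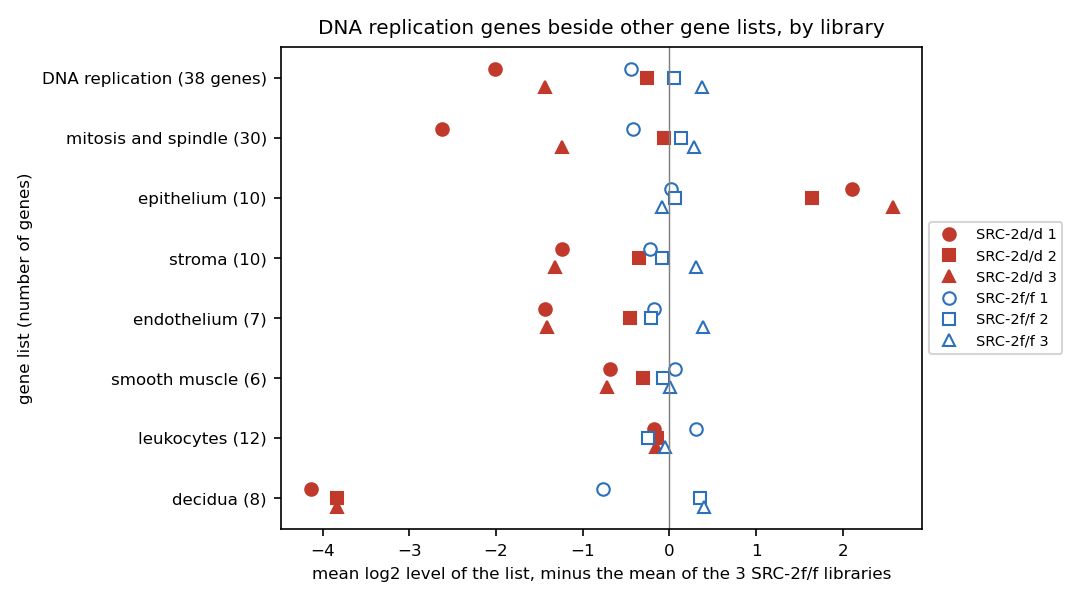
Mean log2(normalized count + 1) of the replication, mitosis, epithelial, stromal, endothelial, smooth muscle, leukocyte and decidual gene lists in each uterus. Values are relative to the mean of the 3 SRC-2f/f libraries. Filled red symbols are SRC-2d/d and open blue symbols SRC-2f/f mice 1 (circle), 2 (square) and 3 (triangle). SRC-2d/d mouse 2 lies near the SRC-2f/f mice for the 38 replication genes (-0.25) and the mitosis list (-0.06), but with the other SRC-2d/d mice for the decidual (-3.83) and epithelial (1.65) lists.

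Marker genes of several cell types differed between the genotypes beside the replication genes. Of 10 epithelial markers 9 rose, and their summed normalized count ranged from 335278 to 697845 in SRC-2d/d and from 102919 to 113529 in SRC-2f/f uteri. Cldn7 and Grhl2, an epithelial junction gene and an epithelial transcription factor, had log2 differences of 2.52 and 2.46. Of 8 decidual markers 7 fell, among them Tdo2 (-5.67) and Igfbp3 (-4.97), with sums of 31867 to 68704 in SRC-2d/d and 276736 to 354302 in SRC-2f/f uteri; Prl8a2 was at 0 in SRC-2d/d mouse 2 and Prl3c1 in SRC-2d/d mice 1 and 2. Stromal markers fell in 5 of 10 cases, with Hand2 at -2.64 and Pdgfra at -1.42, and sums of 961472 to 1879000 in SRC-2d/d and 1812310 to 2496880 in SRC-2f/f uteri. Most of each stromal sum was Col1a1 and Col3a1, which were not called (-0.74 for each). Endothelial markers fell in 5 of 7 cases, with Cdh5 at -1.84 and Emcn at -1.42, and sums of 44133 to 87840 in SRC-2d/d and 108009 to 172417 in SRC-2f/f uteri. These calls moved with single libraries: without SRC-2f/f mouse 3, 1 stromal (Hand2) and 0 endothelial markers were called lower, and without any other library except SRC-2d/d mouse 2 the counts were 2 or 3 stromal and 1 or 2 endothelial.

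The other lists moved less. Of 6 smooth muscle markers Des fell (-1.23; not called without SRC-2d/d mouse 1 or 3 or SRC-2f/f mouse 3), with sums of 415017 to 552061 in SRC-2d/d and 666638 to 721620 in SRC-2f/f uteri. Of 12 leukocyte markers S100a8 fell (-2.07), with sums of 82543 to 85541 in SRC-2d/d and 77788 to 92882 in SRC-2f/f uteri. The other 11 were not called. Of the 12, 9 had negative differences, S100a9 at -0.09 among them, while Cd68, Adgre1 and Ptprc stood at 0.60, 0.54 and 0.44. Of 6 erythroid markers 0 were called by limma or edgeR, with sums of 52333 to 212175 in SRC-2d/d and 69874 to 96153 in SRC-2f/f uteri. Of 8 embryo and trophoblast markers Elf5 rose (3.51) and the other 7 were not called. Their sums were 1287 to 3002 in SRC-2d/d and 1372 to 2967 in SRC-2f/f uteri. Of the 8, 5 (Pou5f1, Cdx2, Fgf4, Dppa3 and Zfp42) were at 0 in at least 1 library. Most of each sum was Eomes alone, at 921 to 2242 in SRC-2d/d and 1272 to 2862 in SRC-2f/f uteri. Which cells of the uterus the Elf5 and Eomes RNA came from was not tested. For the stromal, endothelial and smooth muscle lists SRC-2d/d mouse 2 stood nearer to the SRC-2f/f mice than SRC-2d/d mice 1 and 3 did. It was at -0.35, -0.45 and -0.30 on the log2 scale relative to the SRC-2f/f mean, beside -0.25 for the replication genes. In the epithelial list it stood at 1.65, beside 2.11 and 2.58 in SRC-2d/d mice 1 and 3. For the decidual list it stood at -3.83, beside -4.14 and -3.84 in SRC-2d/d mice 1 and 3. The part of these cell types in the levels of the replication genes was not tested.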

How the data were processed

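Uterine mRNA of 3 SRC-2d/d and 3 SRC-2f/f mice was sequenced, 1 library per mouse. Per the submitters' processing notes, the tools were HISAT2, HTSeq and DESeq, with no versions. The sources used here do not give the genome build, the annotation, the strand setting or how multiply mapped reads were treated. The table deposited by the authors is titled FPKM, but its signal values were read counts per gene divided by a size factor per library: 100% were whole multiples of the smallest value within 1e-06, whatever the gene length. Dividing by that step gave back the reads. Here the values were fitted with limma 3.58.1 in R 4.3.3 (lmFit, eBayes with trend, two-sided) on log2(value + 1) for 36154 genes (mean over libraries of at least 0.5), genotype as the only term, and Benjamini-Hochberg adjusted over all of them; edgeR 4.0.16 (quasi-likelihood) and DESeq2 1.42.0 used the recovered reads. The planned test allowed for normalized values and was kept. Fold changes on this scale understate those of low genes.

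The 38 genes, the other lists and the alternatives were chosen with earlier results of these data known. Named genes are Ncoa2, the 38 genes and up to 4 called members of each pathway or mitosis list with the smallest p. Where none was called, 1 was named. Up to 2 called markers of each cell type were named too. Nuf2, Cdc20, Prl8a2, Prl3c1, the other cell type markers, the promoters shown and the subunit shares were chosen after their values were seen. A further gene picked by this rule is not reported here. Per-kilobase levels used exon lengths of GENCODE M21, in which 12 of the 38 genes share over 5% of their exon length with another gene. The fit was tested on simulated data. Replicate numbers were not taken to pair the mice, because the labels give no shared litter or day and same-numbered libraries did not deviate together in every pair.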

Additional observations from a re-analysis of the deposited data

How the results depend on the processing

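With all 6 libraries 16 of the 38 replication genes were called lower. That count was 0 with eBayes robust and 0 with eBayes without trend, 4 by edgeR, 10 with a mean of at least 100, 4 with a pseudocount of 0.1 and 7 with quantile scaling, and it ran from 0 to 35 over the fits that left out 1 library each. Of all genes tested 3405 were called, 3538 with eBayes robust, 998 with eBayes without trend and 1328 to 5411 with 1 library left out. Of the 96 other genes of the pathway 9 were called, 0 with eBayes without trend, 5 with a pseudocount of 0.1, and 0 to 54 with 1 library left out. The causes were not tested. The median log2 difference of the 38 genes stayed negative under every setting run, from -1.82 to -0.82. Over the single genes of the 38 and their 684 alternative fits, 503 kept the direction and the side of the threshold, 154 were no longer called, 27 were newly called and 0 changed sign. With the replicate number as a block, 23 of the 38 genes and 30 of the 96 were called lower, but the correlations of same-numbered libraries (0.376, 0.0146 and 0.0274) do not pair the mice. Each group had 3 mice, and SRC-2d/d mouse 2 stood apart from the others. The calls among the 38 genes changed with the mice left out and, with all 6 mice kept, with the settings of the fit. The lowest count among the 38 genes was 201 reads, in Fen1, and an effect of depth was not tested.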

Other observations

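SRC-2d/d mouse 2 exceeded all 3 SRC-2f/f mice in a few genes of the cell cycle, which were chosen after their values were seen. Mki67, the proliferation marker Ki-67, had 11618, 61756 and 22045 normalized counts in SRC-2d/d mice 1 to 3, against 42288, 41949.8 and 54572 in SRC-2f/f mice (log2 difference -0.87, adjusted p = 0.258). Of the 30 mitosis genes, 4 (Mki67, Cenpe, Cenpf and Nusap1) stood above the SRC-2f/f range in that mouse, 25 within it and 1 (Cenpa) below it. The share above, 13.3%, was smaller than the 25.7% of all genes tested. Brca1, of homologous recombination, had 865, 6068 and 1876 in SRC-2d/d mice, against 4044, 4373 and 5945 in SRC-2f/f mice (adjusted p = 0.186). In the same uterus E2f8, at 3607, and Rrm2, at 11731, stood below every SRC-2f/f mouse. The p53-inducible small subunit gene Rrm2b had 2274, 2880.3 and 4241 in SRC-2d/d mice, against 2398, 1897 and 2299 in SRC-2f/f mice (0.47, adjusted p = 0.315), so its groups overlapped.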
